A study of Mus musculus with 24 samples.

Results

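The genes described here are 35 mouse genes of amino acid breakdown and the urea cycle, taken by symbol from a deposited table of 18171 genes measured in liver. All 35 were found in the table, and 33 reached the expression filter (FPKM 1 or more in 6 or more libraries), as did 10532 genes in all. FPKM counts the fragments of a gene relative to its length and to the fragments of the whole library. Every one of the 33 tested members had an FPKM above 10 in every library, so the filter did not depend on one group. The 2 members that did not pass, Psat1 and Phgdh, make serine rather than break it down. Psat1 had an FPKM of 0.10 to 0.72 and Phgdh one of 0 to 0.42 over the 24 libraries.

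The mice were of the strain C57BL/6 and the tissue was liver in all groups. One genotype overexpressed a protein that the labels call L2 delta13 or L2 13, written here L2d13, and the other was wild type (WT). The labels do not spell out L2, and the promoter and the cell type that drive the overexpression, the age of the animals and any pooling are not given in the sources used here. Outside these labels the name denotes a spliced variant of Loxl2, an enzyme that crosslinks matrix proteins. Sample names in both genotypes hold the digit 2 or 4, which no label explains, so the 24 libraries form 4 groups of 6, named set 2 and set 4 of each genotype. Running numbers in the names form a separate block for each group, so genotype within a set cannot be told apart from whatever those numbers follow. Whether the libraries of a group were from different animals is not labelled. The p-values below therefore rest on a spread between samples that may be technical in part. In bulk liver RNA, fewer cells of a type and less RNA per cell cannot be told apart.

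Amino acids that are not built into protein lose their nitrogen in hepatocytes. Aminotransferases move the amino group to glutamate and aspartate, the urea cycle joins ammonia and aspartate nitrogen into urea for excretion, and the carbon skeletons are passed on to glucose, ketone bodies or the citric acid cycle. Liver cells around the portal vein are known for the urea cycle and for the breakdown of most amino acids, and hormones of fasting, above all glucagon and glucocorticoids, are known to raise many of these enzymes.

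Library sums of FPKM lay between 550260 and 722980, and the number of fragments per library is not known from FPKM. Loxl2 had a median FPKM of 1.60 in L2d13 libraries (0.83 to 2.26) and 0.625 in WT libraries (0.36 to 1.26). Gm21451, an annotated copy of Loxl2 with which it can share reads, had 40.6 to 266 in L2d13 and 0.03 to 1.27 in WT, so the split between the 2 copies is uncertain. All 9 hepatocyte markers were present, with summed FPKM between 35893 and 66879. Kidney markers summed to at most 0.48, and exocrine pancreas markers to at most 0.78 apart from 51.6 in set 2 L2d13 replicate 1. Set 2 L2d13 replicate 3 stood apart from the other libraries. Its Alb was 11019 FPKM against 23035 to 39137 elsewhere. It had the highest summed markers of Kupffer, sinusoidal endothelial, stellate, bile duct and blood cells of the 24 libraries. It was the lowest of its group for 21 of the 33 tested members, against 0 to 5 for the other libraries of its group. In 7 libraries, 2 L2d13 and 5 WT, the FPKM worth of 1 fragment was more than 2% above the common value (1.04 to 1.30 times). Besides that library they were replicate 11 of set 4 L2d13, replicate 6 of set 2 WT and replicates 9 to 12 of set 4 WT, so results are also given for the other 17. Over all tested genes the L2d13 minus WT difference had a median of 0.12 on the log2 scale, and scaling each library by its median ratio to the others brought it to 0.00. That scaling also moved the calls over all tested genes from 2730 higher and 512 lower to 1215 higher and 1164 lower, and a difference is therefore also read against 0.12.

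Promoter sequences are shown for the 4 members that changed by at least 0.5 on the log2 scale, kept their call under both other scalings and have an entry in the RefSeq promoter table of GRCm38.p6. Each is the 250 bases upstream of the gene's start, read 5′ to 3′ on the gene's strand. Of the 35 members, 26 have an entry (28 windows); Arg1, Asl, Cps1, Cth, Gls2, Gpt, Mat1a, Sds and Sdsl have none. Capitals mark matches on either strand to 5 motifs. The letters searched were TATAAA for the core promoter element bound by the general transcription machinery, and CCAAT for the box bound by the factor NF-Y. For the short sites of hormone response they were TGACG for the cAMP pathway and AGAACA for the glucocorticoid receptor. For the C/EBP factors they were TTGCNNAA. Otc lies at chrX:10252055-10252304 on the plus strand, Got1 at chr19:43524606-43524855 on the minus strand, Gpt2 at chr8:85492326-85492575 on the plus strand and Hgd at chr16:37579903-37580152 on the plus strand.
Otc: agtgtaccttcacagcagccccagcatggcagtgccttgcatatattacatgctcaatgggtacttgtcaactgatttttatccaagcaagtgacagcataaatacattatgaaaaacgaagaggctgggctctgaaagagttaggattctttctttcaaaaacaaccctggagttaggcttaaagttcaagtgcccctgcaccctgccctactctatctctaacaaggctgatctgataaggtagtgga
Got1: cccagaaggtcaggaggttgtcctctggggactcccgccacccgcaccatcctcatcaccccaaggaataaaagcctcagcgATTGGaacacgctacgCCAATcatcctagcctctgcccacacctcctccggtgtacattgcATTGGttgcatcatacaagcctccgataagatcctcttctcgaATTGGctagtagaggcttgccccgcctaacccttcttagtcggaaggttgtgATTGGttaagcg
Gpt2: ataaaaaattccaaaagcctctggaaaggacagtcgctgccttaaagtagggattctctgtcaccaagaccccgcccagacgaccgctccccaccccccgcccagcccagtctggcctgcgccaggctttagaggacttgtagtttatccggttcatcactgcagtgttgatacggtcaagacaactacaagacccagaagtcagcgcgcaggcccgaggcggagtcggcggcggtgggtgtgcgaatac
Hgd: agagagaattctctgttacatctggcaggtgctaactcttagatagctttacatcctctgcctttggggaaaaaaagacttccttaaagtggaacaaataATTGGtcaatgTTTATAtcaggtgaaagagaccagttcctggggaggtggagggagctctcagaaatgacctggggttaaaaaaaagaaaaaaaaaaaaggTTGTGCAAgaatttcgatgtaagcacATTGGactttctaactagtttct
The Got1 window held 5 CCAAT boxes, starting at -168, -152, -107, -64 and -12 from the gene's start. The Hgd window held CCAAT boxes at -150 and -23, a TATAAA match at -139 and a C/EBP site at -49. The windows of Otc and Gpt2 held no match to these letters. Over the 28 member windows, 14 held the CCAAT box, 6 the TATAAA element, 2 the C/EBP site, 2 the cAMP site and 1 the glucocorticoid site. The shares of all 32851 windows in the table with these motifs were 33.8% for the CCAAT box, 12.4% for the TATAAA element, 9.56% for the C/EBP site, 17.8% for the cAMP site and 16.1% for the glucocorticoid site.

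Between L2d13 and WT livers over both sets, most of the members that changed rose. Of the 33 tested members, 15 rose and 1, Otc, fell at an adjusted p under 0.05 (limma on log2(FPKM + 1), Benjamini-Hochberg adjustment over all 10532 genes). This made 48.5% of the members, while 30.8% of all tested genes were called. The called share of rises was 45.5% against 25.9% of all genes, and that of falls 3.03% against 4.86%. The median log2 difference of the tested members was 0.37, against 0.12 for all tested genes. The members that rose lay in every arm of the pathway other than 2 small ones. These were glutamine and proline breakdown and histidine breakdown, with 3 tested members each. After median-of-ratios scaling 8 members rose and 3 fell, and after quantile normalization 12 rose and 2 fell. Without set 2 L2d13 replicate 3, 19 rose and 2 fell, and in the 17 libraries that do not stand apart 14 rose and 1 fell. Of all 10532 tested genes, 1215 rose and 1164 fell after median-of-ratios scaling, and 1310 and 1079 after quantile normalization. Without that replicate the counts over all genes were 2829 and 827, and in the 17 libraries 1535 and 557. Only 9 of the 16 called members kept their call under both scalings: Cps1, Otc, Asl, Got1, Gpt2, Hpd, Hgd, Mat1a and Sdsl.

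The members took a larger part of the FPKM sum in L2d13 livers. Their summed FPKM was 3.88% ± 0.749 (SD, n = 12) of the library's sum in L2d13, where it ran from 2.19% to 5.40%. In WT it was 2.68% ± 0.657 (SD, n = 12) and ran from 1.89% to 3.87%. The lowest L2d13 library was set 2 replicate 3, and the 2 highest WT libraries were set 2 replicates 3 and 5. A sum of FPKM weighs the members by their level. Bhmt, the most abundant in both genotypes, had a mean of 4229 FPKM in L2d13 and 3203 in WT and was not called. FPKM is given per length, so levels can be set side by side between genes. In WT livers the highest median level was that of Bhmt (2913 FPKM), followed by Ass1 (1833), Hpd (1591), Tat (1192), Gnmt (1068), Mat1a (1016) and Arg1 (975). All of these genes had overlapping ranges over the 12 WT libraries, the widest being that of Bhmt (548 to 6024 FPKM). Sdsl (14.3), Nags (26.8), Slc25a13 (56.6), Prodh (72.8), Aldh4a1 (72.9) and Slc25a15 (88.5) had the lowest median levels of the tested members.

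**Figure D1:**
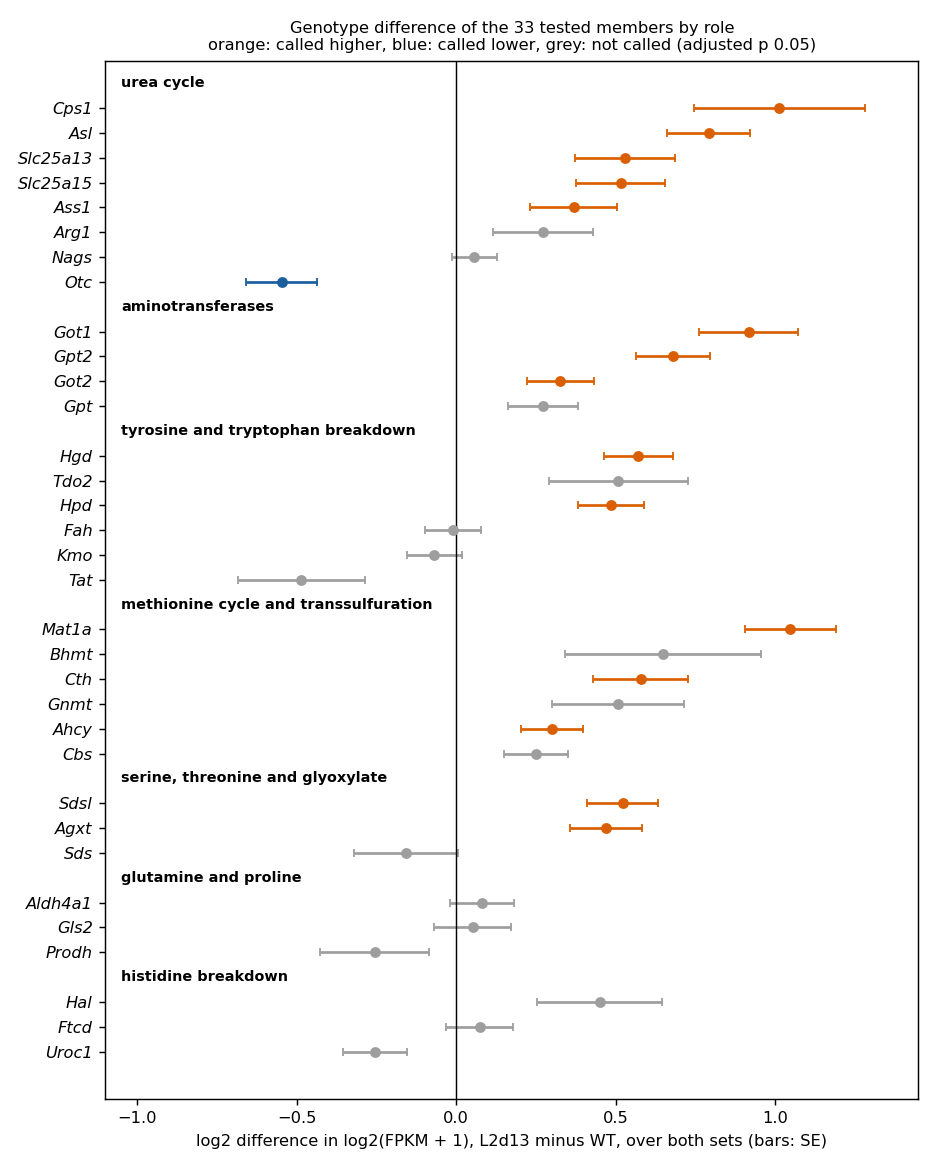
Log2 difference in log2(FPKM + 1) between L2d13 and WT over both sets (x axis) for each of the 33 tested members, grouped by role (y axis). Points are limma estimates and bars their SE; orange members rose, the blue member (Otc, -0.55) fell and grey members were not called. Mat1a (1.05), Cps1 (1.01), Got1 (0.92) and Asl (0.79) lie farthest to the right.

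Among the 8 urea cycle members, 5 rose, 1 fell and 2 were not called. This made 75% called, against 30.8% of all tested genes, and after median-of-ratios scaling 2 rose and 1 fell. Cps1, at chr1:67123026-67231259 on GRCm38, encodes the mitochondrial carbamoyl phosphate synthetase that starts the cycle. Its FPKM was 245 to 1474 (median 978) in set 2 L2d13 libraries and 243 to 1182 (median 428.1) in set 2 WT libraries. The set 4 values were 762 to 1583 (median 1094) in L2d13 and 317 to 696 (median 433.1) in WT. The genotypes overlapped in set 2, where L2d13 replicate 3 was low at 245 and WT replicates 3 and 5 were high at 1182 and 975, and did not overlap in set 4. Over both sets Cps1 rose by 1.01 ± 0.27 (SE) on the log2 scale, or 2.02-fold (limma adjusted p = 0.00610), and 11 of 12 L2d13 libraries exceeded the mean of their WT group. After median-of-ratios scaling the difference was 0.87 (adjusted p = 0.0340).

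Otc encodes the enzyme that joins carbamoyl phosphate, the product of Cps1, to ornithine, and it was the 1 member that fell. Its FPKM was 62.4 to 142 (median 102) in set 2 L2d13 and 140 to 193 (median 153) in set 2 WT. In set 4 it was 111 to 160 (median 134) in L2d13 and 139 to 215 (median 185) in WT. The genotypes overlapped in each set, and all 12 L2d13 libraries lay below the mean of their WT group. Otc fell by 0.55 ± 0.11 on the log2 scale (limma adjusted p = 0.000738), and by 0.69 after median-of-ratios scaling. In the 17 libraries that do not stand apart it fell by 0.36, a value more than 1.5 times smaller, and without set 2 L2d13 replicate 3, its lowest library, by 0.48. WT set 4 replicates 9 to 12, all among the libraries that stand apart, had 179 to 215 FPKM, while replicates 7 and 8 had 146 and 139. Otc and Cps1 thus moved in opposite directions over the same 24 libraries.

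Asl, the lyase that releases arginine from argininosuccinate, had 763 to 1093 FPKM (median 933) in set 2 L2d13 and 339 to 729 (median 539) in set 2 WT. In set 4 the ranges were 696 to 1359 (median 1035) and 416 to 815 (median 605). The genotypes did not overlap in set 2 and overlapped in set 4 through L2d13 replicate 8 at 696. Asl rose by 0.79 ± 0.13 (limma adjusted p = 0.000101), and 12 of 12 L2d13 libraries exceeded the mean of their WT group. Ass1, which makes argininosuccinate from citrulline and aspartate, rose by 0.37 ± 0.14 (adjusted p = 0.0418), but it was not called without the filter (0.0793), after median-of-ratios scaling (0.327) or in the 17 libraries (0.104).

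Both mitochondrial carriers of the cycle rose. Slc25a15, the exchanger of ornithine and citrulline, had 75.0 to 159 FPKM (median 128) in set 2 L2d13 and 57.2 to 145 (median 97.1) in set 2 WT. Set 4 held 134 to 201 (median 146) in L2d13 and 73.8 to 131 (median 86.3) in WT, with no overlap. The log2 difference was 0.52 ± 0.14 (limma adjusted p = 0.00742). Slc25a13, the exchanger of aspartate and glutamate that supplies the cytosol with aspartate, had 56.5 to 118 (median 102) in set 2 L2d13 and 44.1 to 111 (median 65.6) in set 2 WT. Its ranges in set 4 were 72.6 to 105 (median 98.9) and 42.5 to 88.3 (median 53.4). The highest WT libraries, replicates 3 and 5 in set 2 and replicates 7 and 8 in set 4, reached into the L2d13 range, and in set 2 L2d13 replicate 3 lay within the WT range. The log2 difference was 0.53 ± 0.16 (adjusted p = 0.0124). Neither carrier was called after median-of-ratios scaling (adjusted p = 0.0902 and 0.0982) or in the 17 libraries (0.0550 and 0.0867), where the differences were 0.32 and 0.34. Arg1, the arginase that releases urea, had a log2 difference of 0.27 (adjusted p = 0.192). Its value was 0.40 without set 2 L2d13 replicate 3, whose 421 FPKM lay far under the other 5 of its group (1001 to 1337), and it was then called (0.00943), as it was in the 17 libraries (0.52, adjusted p = 0.00948). Nags, which makes the activator of Cps1, had 0.06 (0.579), with the sign turned under both scalings.

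**Figure D2:**
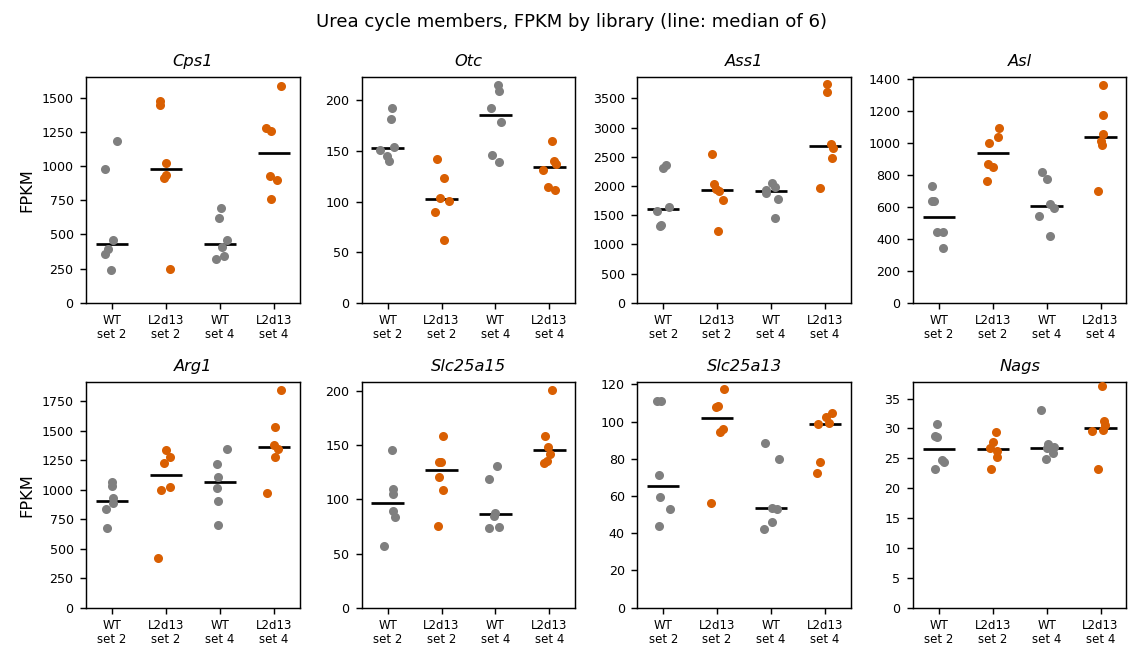
FPKM (y axis) of the 8 urea cycle members in each of the 24 libraries, by genotype and set (x axis); points are libraries and lines the median of 6. Otc is lower in L2d13 (orange) than in WT (grey) while Cps1, Asl and both carriers are mostly higher, and set 2 L2d13 replicate 3 is the low orange point of Cps1, Arg1 and Slc25a13.

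Of the 4 aminotransferases, 3 rose and none fell, 75% called against 30.8% of all tested genes. Got1, the cytosolic aspartate aminotransferase, had 194 to 335 FPKM (median 288) in set 2 L2d13 and 101 to 281 (median 174) in set 2 WT. In set 4, levels were 339 to 647 (median 393) in L2d13 and 133 to 265 (median 195) in WT. Every L2d13 library of set 4 lay above every WT library of that set, and in set 2 WT replicate 3 at 281 reached into the L2d13 range. Got1 rose by 0.92 ± 0.15 (limma adjusted p = 0.000123), 1.89-fold, and 12 of 12 L2d13 libraries exceeded the mean of their WT group. Gpt2, the mitochondrial alanine aminotransferase, had 122 to 203 (median 165) in set 2 L2d13 and 82.5 to 178 (median 101) in set 2 WT. In set 4 it had 167 to 244 (median 212) and 93.5 to 150 (median 119), without overlap. Gpt2 rose by 0.68 ± 0.12 (adjusted p = 0.000136) and exceeded the mean of the WT group in 12 of 12 L2d13 libraries. After median-of-ratios scaling Got1 differed by 0.77 and Gpt2 by 0.54. Mitochondrial Got2 rose by 0.33 ± 0.11 (adjusted p = 0.0208), a call lost under both scalings. Cytosolic Gpt had 0.27 (adjusted p = 0.0577), and 0.30 with a call when set 2 L2d13 replicate 3 was left out (0.0405).

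In tyrosine and tryptophan breakdown, 2 of 6 members rose and none fell. This made 33.3% called, near the 30.8% of all tested genes. Hgd, which opens the ring of homogentisate, had 370 to 501 FPKM (median 469) in set 2 L2d13 and 210 to 416 (median 320) in set 2 WT. Its ranges in set 4 were 342 to 483.8 (median 361) and 192 to 342 (median 244), with the lowest L2d13 library at 342.45 just above the highest WT library at 342.23. Hgd rose by 0.57 ± 0.11 (limma adjusted p = 0.000396), and 12 of 12 L2d13 libraries exceeded the mean of their WT group. Hpd, the enzyme just before it, rose by 0.49 ± 0.10 (adjusted p = 0.00109), with L2d13 libraries between 1812 and 2585 FPKM and WT libraries between 1234 and 2413. The first and the last enzyme of the route were not called. Tat, the aminotransferase that starts it, had a difference of -0.49 ± 0.20 (adjusted p = 0.0658), called lower after median-of-ratios scaling (-0.63, adjusted p = 0.0412), and Fah, the last enzyme, had -0.01 (0.954). Tat varied widely in L2d13, from 343 to 1483 FPKM, against 749 to 1622 in WT.

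Tdo2, the dioxygenase that opens tryptophan breakdown, had 350 to 1034 FPKM (median 925) in set 2 L2d13 and 483.6 to 1103 (median 797) in set 2 WT. Set 4 L2d13 libraries had 852 to 1749 (median 1077) and those of WT 412 to 1032 (median 451). Over both sets its difference was 0.51 (limma adjusted p = 0.0760), 0.64 and called without set 2 L2d13 replicate 3 (0.00998), and 0.18 in the 17 libraries. It was 1.0 ± 0.28 in set 4 (0.0206) and 0.02 ± 0.28 in set 2 (0.974), and the difference between the sets, 0.98 ± 0.40, was not called (0.582). WT set 4 replicates 7 and 8, at 856 and 1032, stood above replicates 9 to 12, at 412 to 473, and in the 17 libraries the set 4 difference was 0.31 (0.501). Kmo, a later enzyme of that route, had a difference of -0.07.

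All 6 members of the methionine cycle and transsulfuration had positive differences (median 0.54, against 0.12 for all tested genes), and 3 rose. This made 50% called, against 30.8% of all tested genes. After median-of-ratios scaling 1 of the 6 rose, against 1215 of all 10532 genes. Mat1a, at chr14:41105035-41124412, makes S-adenosylmethionine, the methyl donor of the liver cell. Its FPKM was 1598 to 3324 (median 2300) in set 2 L2d13 and 836 to 1998 (median 1036) in set 2 WT. In set 4 it was 1882 to 3047 (median 2218) in L2d13 and 899 to 1239 (median 1012) in WT. The genotypes were separate in set 4, and in set 2 WT replicates 3 and 5, at 1998 and 1659, lay among the lower L2d13 libraries. Mat1a had the smallest adjusted p of the members, with a rise of 1.05 ± 0.14 (limma adjusted p = 1.1e-05), 2.07-fold, and 12 of 12 L2d13 libraries exceeded the mean of their WT group. It was 0.90 after median-of-ratios scaling, 1.08 after quantile normalization and 0.99 in the 17 libraries.

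Cth, the lyase that yields cysteine at the end of transsulfuration, had 259 to 492.1 FPKM (median 424) in set 2 L2d13 and 201 to 447 (median 239) in set 2 WT. In set 4 it had 328 to 865 (median 499) and 261 to 445 (median 348). The genotypes overlapped in both sets, and 10 of 12 L2d13 libraries exceeded the mean of their WT group. Cth rose by 0.58 ± 0.15 (limma adjusted p = 0.00526), a call lost after median-of-ratios scaling (0.0682). Ahcy, which clears the product of methyl transfer, rose by 0.30 ± 0.10 (adjusted p = 0.0222) and was called under neither scaling. Bhmt, which remethylates homocysteine with betaine, had 548 to 4828 FPKM in set 2 WT and 1239 to 6024 in set 4 WT. Its difference of 0.65 ± 0.31 was not called (adjusted p = 0.110), but it was 1.27 and called in the 17 libraries (0.0126). WT set 2 replicates 3 and 5 had 3757 and 4828 against 548 to 1835 in the other 4, and WT set 4 replicates 7 and 8 had 2069 and 1239 against 4058 to 6024. Gnmt, which methylates glycine, had 0.51 (0.0642) and Cbs, the first step of transsulfuration, 0.25 (0.0566).

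Of the 3 tested members of serine, threonine and glyoxylate metabolism, 2 rose, 66.7% called against 30.8% of all tested genes. Sdsl, a relative of serine dehydratase, had 19.8 to 31.2 FPKM (median 24.2) in set 2 L2d13 and 11.4 to 18.7 (median 13.6) in set 2 WT, without overlap. In set 4 the ranges were 13.7 to 24.3 (median 16.1) and 10.9 to 17.4 (median 14.8), and they overlapped. Sdsl rose by 0.52 ± 0.11 over both sets (limma adjusted p = 0.00122), by 0.78 ± 0.14 in set 2 (0.00117), and its difference in set 4 was 0.26 ± 0.14 (0.224). The difference between the sets was -0.52 ± 0.20 and not called (0.572). Agxt, which removes glyoxylate, rose by 0.47 ± 0.11 (adjusted p = 0.00278) and 12 of 12 L2d13 libraries exceeded the mean of their WT group, a call lost after median-of-ratios scaling (0.0578). Sds, the serine dehydratase itself, had a difference of -0.16 (0.493).

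None of the 6 members of glutamine, proline and histidine breakdown was called, while 30.8% of all tested genes were. Gls2, the liver glutaminase, had a log2 difference of 0.05, Aldh4a1 0.08 and Prodh, the first enzyme of proline breakdown, -0.26 (limma adjusted p = 0.267). Hal, the first enzyme of histidine breakdown, had 0.45 (0.0824), and was called without set 2 L2d13 replicate 3 (0.56, adjusted p = 0.0178). Uroc1, the next enzyme, had -0.25 (0.0525) and was called lower under both scalings and without set 2 L2d13 replicate 3, and Ftcd had 0.07 (0.632).

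**Figure D3:**
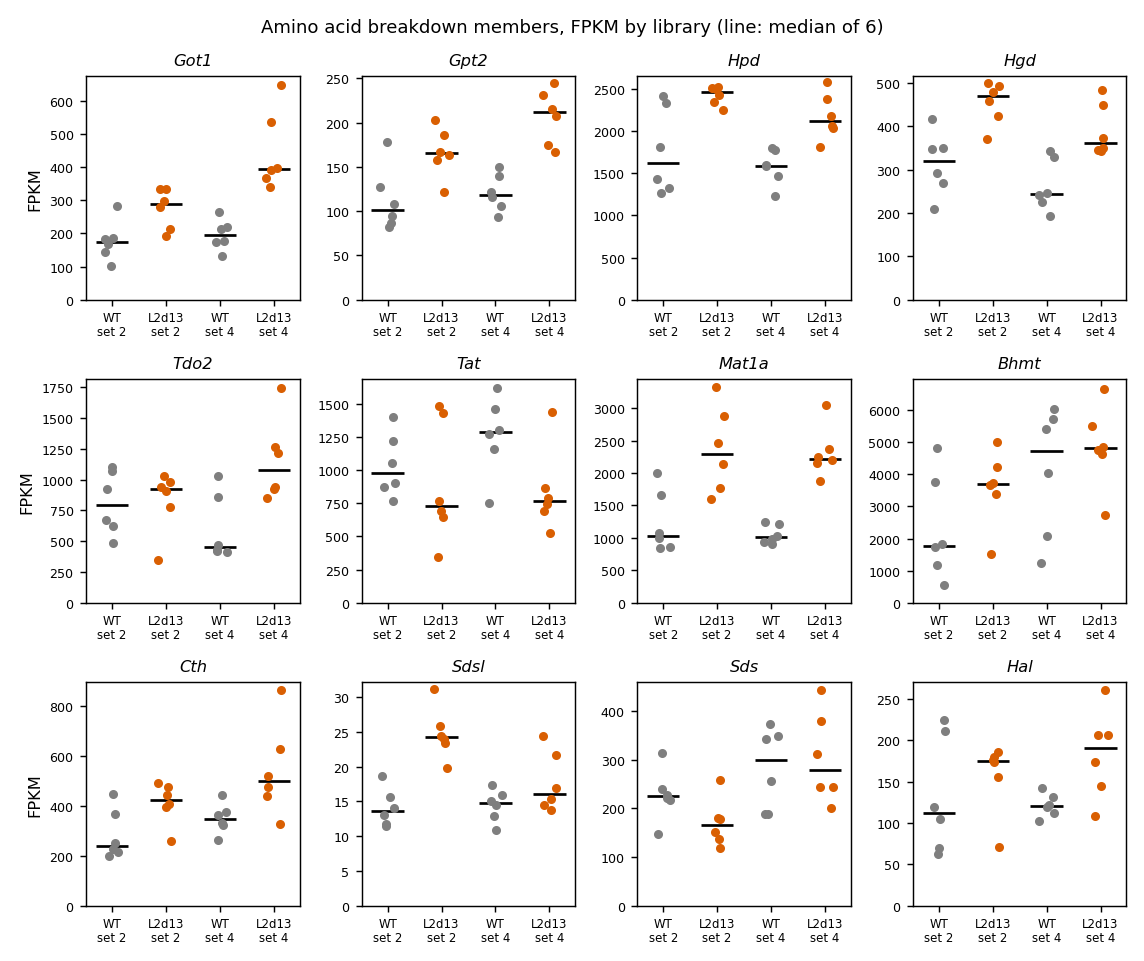
FPKM (y axis) of 12 members of amino acid breakdown in each of the 24 libraries, by genotype and set (x axis); points are libraries and lines the median of 6. L2d13 (orange) and WT (grey) do not overlap in set 4 for Got1, Gpt2, Hpd, Hgd and Mat1a or in set 2 for Sdsl, while Tat, Sds and Bhmt overlap widely.

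Within the sets taken alone, fewer members were called. In set 2, 8 members rose (Asl, Got1, Gpt2, Hpd, Hgd, Mat1a, Sdsl and Agxt) and 1, Otc, fell, 27.3% against 15.1% of all genes, of which 13% rose and 2.13% fell. In set 4, 10 rose (Cps1, Ass1, Asl, Slc25a15, Got1, Gpt2, Hpd, Hgd, Tdo2 and Mat1a) and none fell, 30.3% against 13.3% of all genes, of which 10.3% rose and 2.97% fell. Asl, Got1, Gpt2, Hpd, Hgd and Mat1a rose in both sets. The genotypes did not overlap for 2 members in set 2 (Asl and Sdsl) and for 8 in set 4 (Cps1, Slc25a15, Got1, Got2, Gpt2, Hpd, Hgd and Mat1a), while 6% of all tested genes did not overlap in set 2 and 6.6% in set 4. No member separated the genotypes over all 24 libraries. After median-of-ratios scaling 2 members rose in set 2 (Mat1a and Sdsl) and 3 in set 4 (Got1, Gpt2 and Mat1a). Of all 10532 genes, that scaling called 373 higher in set 2 and 631 higher in set 4. In the libraries that do not stand apart 10 members rose in set 2 and 1, Asl, in set 4, where only 2 WT libraries were left against 5 of L2d13. Of all genes, 1985 rose in set 2 and 179 in set 4 in those libraries. There the set 4 difference was 0.31 in place of 0.70 for Slc25a15, 0.24 in place of 0.59 for Hgd and 0.82 in place of 1.25 for Cps1.

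WT set 2 replicates 3 and 5 were among the 2 highest of their group for 23 and 22 of the 33 tested members. For the other libraries of that group the count was 3 to 9. These ranks were not counted over all tested genes. The median differences of the members were 0.23 in set 2 and 0.42 in set 4, against 0.16 and 0.08 for all tested genes. No member was called in the test of the difference between the sets. Of all genes 0.152% were called, 0.0285% with a larger and 0.123% with a smaller difference in set 4. An unadjusted limma p under 0.05 was found for 2 of the 33 tested members, Tdo2 and Sdsl, and for 747 of all 10532 genes. Between the sets, over both genotypes, Sds alone of the members was called, with 0.55 ± 0.16 higher values in set 4 (limma adjusted p = 0.0437). Of all genes 6.09% were called, 0.56% higher and 5.53% lower in set 4. Its FPKM was 119 to 259 in L2d13 and 147 to 313 in WT of set 2, and 200 to 443.9 and 188 to 373 in set 4, so the sets overlapped. The call was lost without the filter (0.0629), after quantile normalization (0.0521), in the 17 libraries (0.203) and without set 2 L2d13 replicate 3 (0.0649).

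**Figure D4:**
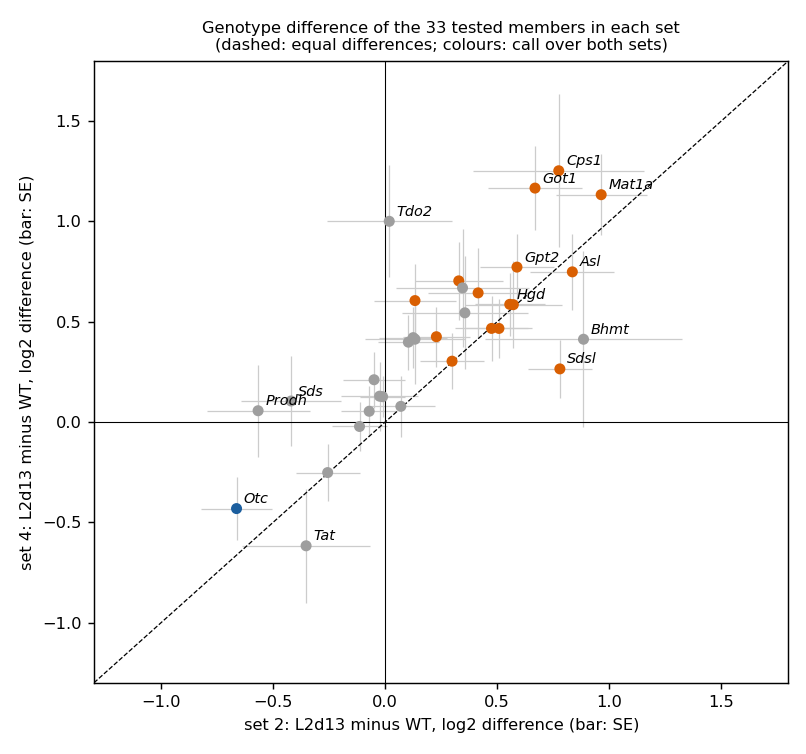
Log2 difference in log2(FPKM + 1) between L2d13 and WT in set 2 (x axis) and set 4 (y axis) for the 33 tested members; points are limma estimates, bars their SE, the dashed line marks equal differences and colours give the call over both sets (orange higher, blue lower, grey not called). Tdo2 (0.02 and 1.0) lies farthest above the dashed line and Sdsl (0.78 and 0.26) below it.

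Other enzymes and transporters of amino acids were counted in lists of 90 genes outside the members. Of the 86 tested, 22 rose and 9 fell, 36.0% called against 30.8% of all tested genes. Rises made up 25.6% of them against 25.9% of all genes and falls 10.5% against 4.86%, and the median difference was 0.15 against 0.12. After median-of-ratios scaling 7 rose and 16 fell, against 1215 and 1164 of all 10532 genes, so their balance of rises and falls depends on the scaling. In branched-chain amino acid breakdown 7 of 22 rose and 1 fell, 36.4% called against 30.8% of all tested genes. After median-of-ratios scaling 1 rose and 1 fell. The 3 with the largest differences were Dld (0.51 ± 0.16), a subunit of the branched-chain and pyruvate dehydrogenase complexes, Mccc2 (0.46 ± 0.10) of leucine breakdown and Hsd17b10 (0.46 ± 0.15) of isoleucine breakdown, and none of these 3 was called after median-of-ratios scaling. In tryptophan and lysine breakdown 3 of 13 rose and 2 fell, 38.5% called against the same 30.8%. Aass, which starts lysine breakdown, rose by 0.999 ± 0.167 (limma adjusted p = 0.000112), from a WT median of 87.8 FPKM (64.3 to 166) to 180 (81.4 to 353). Kyat1, a kynurenine aminotransferase, fell by 0.60 ± 0.20 (adjusted p = 0.0255). Aadat, which acts in both routes, rose by 0.59 ± 0.17 but was called under neither scaling.

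In glutamate, proline and ornithine metabolism 3 of 11 tested genes rose and 1 fell, 36.4% called against 30.8% of all tested genes. Oat, which turns ornithine into glutamate semialdehyde and so takes it out of the urea cycle, rose by 0.91 ± 0.16 (limma adjusted p = 0.000130), from a WT median of 283 FPKM (190 to 517) to 544 (398 to 942), and 12 of 12 L2d13 libraries exceeded the mean of their WT group. Odc1, which turns ornithine into the polyamine putrescine, rose by 0.73 ± 0.15 (adjusted p = 0.00110). In methionine and cysteine metabolism 3 of 10 tested genes rose and 1 fell, 40% called against the same 30.8%. Ethe1, a mitochondrial sulfur dioxygenase, fell by 0.64 ± 0.10 (limma adjusted p = 9.05e-05). Suox (0.53 ± 0.18) and Bhmt2 (0.38 ± 0.12) rose without keeping their call under either scaling. In glycine and serine metabolism 2 of 13 rose and 1 fell, 23.1% called against 30.8%. Called were Glyctk at 0.55 ± 0.14, Grhpr at 0.38 ± 0.09 and Pipox at -0.32 ± 0.09. Grhpr was not called after median-of-ratios scaling, and Glyctk and Pipox were not called in the 17 libraries. None of 4 tested genes of phenylalanine and tyrosine breakdown was called, and neither was the 1 other histidine enzyme.

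Amino acid transporters went both ways, with 4 of 12 tested higher and 3 lower. These were 33.3% and 25%, against 25.9% and 4.86% of all tested genes. Slc43a1, a carrier of large neutral amino acids, rose by 1.03 ± 0.17 (limma adjusted p = 0.000123), from a WT median of 1.98 FPKM (0.76 to 3.47) to 4.54 (1.96 to 8.61). Slc38a2, a sodium-coupled importer of small neutral amino acids, fell by 1.04 ± 0.14 (adjusted p = 1.22e-05), from 46.8 (22.9 to 62.8) to 19.5 (15.6 to 26.6). Slc3a1, a transporter subunit, fell by 0.63 ± 0.16 (adjusted p = 0.00419). All 3 kept their call under both scalings.

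Of 14 regulators known to act on amino acid breakdown, 3 fell and 1 rose, 28.6% called against 30.8% of all tested genes. Falls made up 21.4% of them against 4.86% of all genes, and rises 7.14% against 25.9%. Cebpb, a C/EBP transcription factor, fell by 1.13 ± 0.21 (limma adjusted p = 0.000251), from a WT median of 83.6 FPKM (26 to 150) to 39.1 (18.4 to 52.2). Foxo1, a factor of the fasting response that insulin holds back, fell by 0.68 ± 0.13 (adjusted p = 0.000411), and Klf15, a factor known to raise amino acid breaking enzymes in fasting, by 0.66 ± 0.12 (adjusted p = 0.000216). For these 3 no L2d13 library exceeded the mean of its WT group. These 3 kept their call under both scalings. Of 11 tested targets of Atf4, a factor of the response to amino acid shortage, 2 rose and 1 fell. This made 27.3% called, against 30.8% of all tested genes. Only 3 of the 11 had positive differences, and their median difference was -0.09. Called were Trib3 at 1.06 ± 0.15, Atf5 at 0.82 ± 0.12 and Atf3 at -0.41 ± 0.14. Atf4 itself had -0.05 (limma adjusted p = 0.807).

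Markers of liver zones and of other liver cells were set beside the members. Of 9 periportal markers outside the members, 2 rose (Fbp1 and Cdh1) and none fell, and after median-of-ratios scaling none was called. The 2 made 22.2%, while 25.9% of all tested genes rose. Of 13 pericentral markers, Oat among them, 4 rose (Oat, Lgr5, Axin2 and Tbx3) and 3 fell (Cyp1a2, Rgn and Lect2). These were 30.8% and 23.1%, against 25.9% and 4.86% of all tested genes. The median difference of the 13 was 0.09. In the 17 libraries that do not stand apart 1 rose and 4 fell (median -0.16), against 1535 and 557 of all 10532 tested genes. None rose and 4 (30.8%) fell in set 2, where 13% of all tested genes rose and 2.13% fell. In set 4, 4 (30.8%) rose and 2 (15.4%) fell, against 10.3% and 2.97% of all tested genes. For all 13 the L2d13 minus WT difference was more positive in set 4 than in set 2. The median of that change was 0.41, against -0.08 for all tested genes. Limma called it for none of the 13, and 6 had an unadjusted p under 0.05, against 747 of all 10532 tested genes. Of 9 hepatocyte markers only Ttr was called, lower by 0.69 ± 0.12 (limma adjusted p = 0.000141). Sinusoidal endothelial markers rose in 4 of 5, Kupffer cell markers in 2 of 6 and stellate cell markers in 1 of 5. These were 80%, 33.3% and 20%, while 25.9% of all tested genes rose. Summed FPKM of the sinusoidal list was 76.4 to 156 in set 2 L2d13 and 28.8 to 82.7 in set 2 WT, and 29.2 to 67.8 and 18.7 to 67.7 in set 4. The Kupffer list summed to 101 to 232 and 82.1 to 156 in set 2, and to 48.7 to 171 and 29.4 to 113 in set 4. The stellate list summed to 116 to 232 and 66.6 to 125 in set 2, and to 56.1 to 94.2 and 57.5 to 82.2 in set 4. None of the genes of these 3 lists had a median under 0.1 FPKM. In the 17 libraries 1 of 5 sinusoidal, 0 of 6 Kupffer and 1 of 5 stellate markers rose, against 1535 of all 10532 tested genes. The part of these cells in the members' differences was not tested.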

How the data were processed

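The table holds FPKM as the authors deposited it, and the main comparisons scaled it no further. Per the submitters' processing notes, HISAT, Bowtie2 and RSEM were used, without versions, with the build GRCm38.p5. Per the labels' protocols, TRIzol-extracted liver RNA was sequenced on the BGISEQ-500 platform. FPKM carries no read totals, so absolute depth is unknown and no counting intervals are given. Each of the 24 columns was matched to 1 sample by its name, which left 0 unmatched. Of the gene identifiers, 18040 matched a RefSeq symbol and 131 did not. Gene coordinates are those of GENCODE M21 (GRCm38).

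Genes that reached FPKM 1 in 6 or more libraries were tested with limma 3.58.1 (statmod 1.5.0) in R 4.3.3 on log2(FPKM + 1), two-sided, with moderated variances that follow the mean. Genotype over both sets came from a fit with an additive term for set, the other genotype contrasts from 1 mean per group. P-values were adjusted by Benjamini-Hochberg within each contrast over all genes tested, and an adjusted p under 0.05 is a call. The procedure was tested on simulated data with independent noise. These held no shift between libraries and no library that stands apart, so that test does not cover such features. Members and gene lists were chosen with earlier results of these data known. Values by group are given for members called over both sets with a log2 difference of at least 0.5 in size, and of each other list the 3 called genes with the largest difference are named. A few genes chosen in this way are not reported here but remain in the counts of their lists. Other members, the markers and the Atf4 targets are given by range, count or difference. Alternatives were a pseudocount of 0.1, no filter, median-of-ratios scaling, quantile normalization, the 17 libraries that do not stand apart, a replicate block, fits on 2 groups alone and, chosen after seeing the data, leaving out set 2 L2d13 replicate 3. The libraries that stand apart were found from the steps between low FPKM values.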

Additional observations from a re-analysis of the deposited data

Results flagged for a closer look

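In 132 groups of 6 libraries (33 members in 4 groups), 7 held a library whose gap to the nearest of the others took up more than 0.625 of the group's range. Chance flags about 1 in 20 such groups. Set 2 L2d13 replicate 3 accounts for 4 of them, each time as the lowest library: Arg1 at 420.57 FPKM against 1001 to 1337 in the other 5, Slc25a13 at 56.51 against 94.7 to 118, Got2 at 160.92 against 219 to 243, and Hal at 71.19 against 155 to 185. The other 3 were high values. Nags was 33.14 in set 4 WT replicate 8 against 24.9 to 27.4, Slc25a15 was 201.47 in set 4 L2d13 replicate 10 against 134 to 158, and Gpt was 223.47 in set 2 L2d13 replicate 6 against 151 to 173.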

How the results depend on the processing

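With a pseudocount of 0.1 every member kept its call in the genotype over both sets. Over both sets, 15 members were called higher and 1 lower; median-of-ratios scaling gave 8 and 3, and quantile normalization and the fit without set 2 L2d13 replicate 3 each gave 2 lower. The same scaling gave 2 higher in set 2 and 3 in set 4, in place of 8 and 10, and quantile normalization gave 4 higher in set 2. Of all 10532 tested genes, quantile normalization called 413 higher in set 2. Fits on the 2 groups alone gave 4 higher in set 2 and 1 lower (Otc) in set 4, as did the fit without replicate 3 for Otc in set 4. Of all genes, the fits on 2 groups called 777 higher in set 2 and 606 lower in set 4. The fit without replicate 3 called 408 lower in set 4. Without the libraries that stand apart 1 member was higher in set 4, where 2 WT libraries were left. The set effect on Sds was lost, with 0 members higher, without the filter, after quantile normalization, without the libraries that stand apart and without replicate 3, and without the filter 1 member, Psat1, was lower. Replicate numbers do not pair the libraries: of 12 same-numbered pairs 4 had a correlation of deviations above 0.1 (-0.60 to 0.26) and 1 library correlated best with its own number. A replicate block on those numbers gave 13 higher and 1 lower over both sets, 0 higher and 0 lower in set 2, and 15 higher in set 4. Of all genes, the block called 2133 higher and 393 lower over both sets, 51 and 19 in set 2, and 899 and 464 in set 4. Uncalled members near 0 changed sign: Nags to -0.081 (median-of-ratios), -0.046 (quantile) and -0.0267 (17 libraries), Gls2 to -0.0903 and -0.0091 under the scalings, Aldh4a1 to -0.0612 (median-of-ratios) and -0.142 (17 libraries), Ftcd to -0.0688 (median-of-ratios), and Fah to 0.106 (17 libraries). The cause of these changes was not tested. Read totals, unknown here, could not be weighed. The FPKM worth of 1 fragment entered only through the fit on the 17 libraries.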
